A study of Bos taurus with 24 samples.

Results

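In monocyte-derived macrophages (MDMs) of Holstein cows, 40 genes had a mean response (log2, against untreated wells) of at most -1 at 3 hours after exposure to *E. coli* and of at least -0.2 at 18 hours, when 36 lay within 0.5 of the untreated level and 4 stood above that, one of them through a well with a count of 0. The response of a gene was the mean over 6 pairs of wells of its log2 CPM (counts relative to the library total, scaled with edgeR's TMM method, prior count 2) in the exposed well minus the control well. Genes were chosen by these values: they had a mean of at least 5 CPM in control or exposed wells of either hour, a response of at most -1 at 3 hours and one of at least -0.2 at 18 hours. Of the 24616 genes listed, 9727 passed the minimum of 5 CPM, 392 of these had a 3 hours response of at most -1, and the 40 genes were 10.2% of those 392 and 0.411% of the 9727. Since both responses chose the genes, their values are given as a description with no test.

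Blood monocytes of lactating cows were grown for 6 days with recombinant GM-CSF, a growth factor of myeloid cells, and cows were classed as high or low responders by how much nitric oxide their MDMs had released when challenged with *E. coli*. In each responder group 3 cows gave, at each hour, 1 untreated control well and 1 well exposed to bacteria inactivated with paraformaldehyde, at 5 bacteria per cell, which made 8 groups of 3 libraries. The wells of 3 hours and of 18 hours were on different plates, so that a change of level between the hours and a difference between plates cannot be told apart. A control and an exposed library of one responder group and hour whose code holds the same number were treated as wells of one cow. Cows are named here by that number, which holds only within a responder group and hour. In each group of 3 cows the set of numbers differs between the hours. An equal number at the other hour may therefore belong to another cow, and nothing is read from it. The library totals ranged from 6297189 to 20936550 counts.

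Macrophages sense lipopolysaccharide of Gram-negative bacteria through Toll-like receptors, and the signal drives an early wave of cytokine and chemokine transcription. Other transcripts fall at the same time, through lower synthesis or faster decay, among them receptors that the resting cell displays. CCR1, which is among the 40 genes, is a chemokine receptor that guides monocytes and macrophages towards inflammatory chemokines, and EDNRB is the endothelin receptor type B, a G protein-coupled receptor for endothelin peptides.

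The labelled cell type was checked on 4 macrophage markers for which a symbol could be read. CD68, a lysosomal glycoprotein of macrophages, had between 1215 and 2671 TPM (abundance per transcript length) over the 24 libraries, and CD14, the co-receptor for lipopolysaccharide, between 41.0 and 321 TPM. The scavenger receptor MSR1 ranged from 15.5 to 788 TPM and AIF1 from 61.1 to 452 TPM. With *E. coli* at 18 hours CD68 rose by 0.61 (log2, SE 0.06, adjusted p = 1.48e-05), AIF1 fell by 0.95 (SE 0.08, adjusted p = 4.3e-06), MSR1 fell by 3.76 (SE 0.13, adjusted p = 1.44e-08) and CD14 fell by 0.75 (SE 0.08, adjusted p = 1.64e-05) in edgeR's quasi-likelihood test with Benjamini-Hochberg adjustment. Of the markers of other cells, only TRAT1 (T cells), CD79A (B cells), PRF1 (NK cells) and KDR (endothelium) could be identified, and their highest values were 0.75, 2.67, 2.5 and 0.88 TPM. None of the identified markers is among the 40 genes. In the same edgeR test KDR was higher with *E. coli* at 3 hours by 1.58 (SE 0.40, adjusted p = 0.0115) and PRF1 at 18 hours by 2.01 (SE 0.27, adjusted p = 0.000101), and their part in the results was not tested. In bulk RNA fewer cells of a type and less RNA per cell cannot be told apart.

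Return by 18 hours was the exception among genes repressed at 3 hours. Of the 392 genes, 78 had an 18 hours response below -2, 122 between -2 and -1, 100 between -1 and -0.5 and 52 between -0.5 and -0.2. Of the 40 that remained, 23 lay between -0.2 and 0, 13 between 0 and 0.5 and 4 above 0.5. One of these 4, ENSBTAG00000022278, is there through 1 control well with a count of 0 and was not lower in 4 of 6 cows at 3 hours. A small deficit was still seen in all 6 cows at 18 hours in ENSBTAG00000014881 (-0.20 ± 0.10), ENSBTAG00000015534 (-0.19 ± 0.11) and ENSBTAG00000014945 (-0.17 ± 0.13, SD, 6 pairs). At 3 hours the responses of the 40 genes ran from -2.03 to -1.0 with a median of -1.15, and at 18 hours from -0.20 to 1.42 with a median of -0.04. The 200 genes at or below -1 at both hours had medians of -1.31 and -1.73. All 9727 genes had medians of -0.02 and 0.01.

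**Figure D1:**
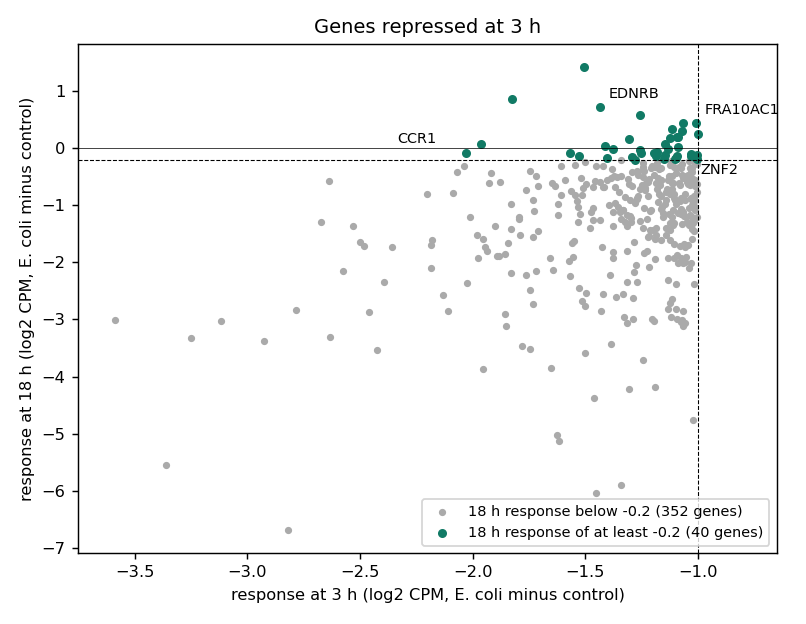
Response to *E. coli* at 3 hours (x axis) and at 18 hours (y axis) of the 392 genes repressed at 3 hours, in log2 CPM of exposed minus control wells, as the mean of 6 pairs, and dashed lines mark the thresholds of -1 and -0.2. The 40 green points lie at or above -0.2 at 18 hours and reach 1.42, while the 352 grey points run down to -6.68.

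The thresholds cut a continuous range. Among the chosen genes, the 3 nearest to the 3 hours threshold on its inside had responses of -1.0005, -1.003 and -1.005. The nearest gene with a symbol outside it was SLC16A3, a lactate transporter, at -0.99, with an 18 hours response of 0.30. The next genes with a symbol outside were LRRC32 at -0.95, with -0.05 at 18 hours, and ZNF667 at -0.93, with 0.12 at 18 hours. At the 18 hours threshold the last gene inside had -0.20, and the nearest with a symbol outside were TRIM45 at -0.23, PLEK2 at -0.24 and CYTIP at -0.29, with 3 hours responses of -1.12, -1.5 and -1.55.

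The return depended on the scale. TMM places the median gene near 0, whereas in TPM, with no further scaling, the median of the 9727 genes was itself -0.46 at 3 hours and -0.25 at 18 hours, on log2(TPM + 0.5). On that scale the medians of the 40 genes were -1.49 and -0.30, and all 40 still had at most -1 at 3 hours, but only 15 of 40 had at least -0.2 at 18 hours. Relative to the median gene the 40 genes stood at -1.13 at 3 hours and -0.05 at 18 hours with TMM, and at -1.03 and -0.05 in TPM. All responses below are on the TMM scale, so that a level like that of the control is a level relative to the other genes, not an amount of RNA per cell.

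Across the hours it was the exposed wells that differed. With all 24 libraries scaled together, the level in exposed wells was higher at 18 than at 3 hours in 40 of 40 genes, by 0.76 to 2.56 (log2) with a median of 1.29. In control wells the median difference between the hours was -0.01, within 0.3 of zero in 31 genes and within 0.5 in 36. The control level was more than 0.5 higher at 18 hours in 3 genes and more than 0.5 lower in 1. The 2 thresholds bound how far the exposed wells differ between the hours beyond the control wells, so these values are a description.

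**Figure D2:**
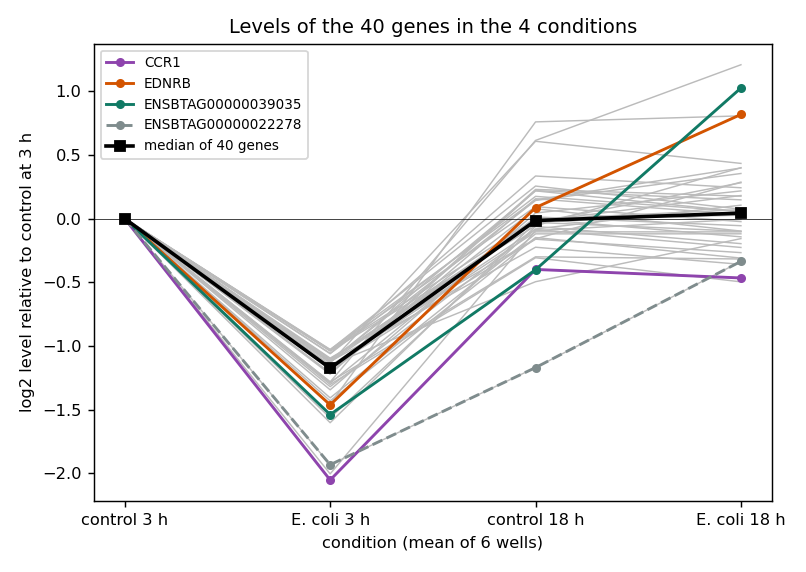
Mean log2 level of each of the 40 genes (grey lines) in control and exposed wells at 3 and 18 hours, relative to its control wells at 3 hours, each point a mean of 6 wells with all 24 libraries scaled together, where black squares are the medians of the 40 genes and 4 genes are coloured. The lines dip in the exposed wells of 3 hours, CCR1 the deepest, and most lie within 0.5 of the starting level in both conditions at 18 hours.

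CCR1 (ENSBTAG00000019428) had the lowest 3 hours response and the highest level of the 40 genes. Its level per length in control wells at 3 hours was 498 TPM, against 75.1 TPM for ENSBTAG00000046118, the next of the 40. In high responder cows of codes 92, 93 and 94 it had 985, 1151 and 590 CPM in control wells at 3 hours and 198, 170 and 204 CPM in exposed wells. In low responder cows of codes 91, 92 and 93 it had 504, 820 and 807 CPM in control wells and 193, 168 and 217 CPM in exposed wells. Control and exposed wells of 3 hours did not overlap, and the exposed wells lay in a narrower range than the control wells. The response was -2.03 ± 0.52 (SD, 6 pairs).

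At 18 hours CCR1 had 803, 695 and 924 CPM in control wells of high responder cows 91, 93 and 94, and 785, 970 and 911 CPM in their exposed wells. Low responder cows 91, 92 and 94 had 624, 476 and 595 CPM in control wells and 437, 365 and 599 CPM in exposed wells. Control and exposed wells overlapped within each responder group, and the response was -0.08 ± 0.35 (SD, 6 pairs) on the TMM scale and -0.34 in TPM. The group means of the exposed wells were 889 ± 94.9 CPM in high and 467 ± 120 CPM in low responder cows (SD, n = 3 each). CCL3, a chemokine that binds CCR1, was higher in exposed wells at both hours, by 2.73 (log2, SE 0.26, adjusted p = 5.2e-05) at 3 hours and 2.29 (SE 0.17, adjusted p = 1.56e-06) at 18 hours in edgeR's quasi-likelihood test with Benjamini-Hochberg adjustment.

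EDNRB (ENSBTAG00000005299) went from below the control level at 3 hours to above it at 18 hours. At 3 hours high responder cows 92, 93 and 94 had 102, 46.5 and 16.1 CPM in control wells and 27.5, 8.42 and 8.55 CPM in exposed wells, and low responder cows 91, 92 and 93 had 27.1, 52.4 and 37.0 CPM and 19.4, 19.5 and 12.9 CPM. The exposed well was lower in each of the 6 cows, although control wells of the high responder cows ranged from 16.1 to 102 CPM. At 18 hours high responder cows 91, 93 and 94 had 96.4, 34.0 and 49.8 CPM in control wells and 149, 56.1 and 40.3 CPM in exposed wells, and low responder cows 91, 92 and 94 had 48.4, 43.1 and 36.3 CPM and 87.9, 109 and 77.7 CPM. The exposed well was higher in 5 of 6 cows, and in low responder cows the exposed wells all lay above the control wells. The response was -1.44 ± 0.70 at 3 hours and 0.72 ± 0.56 at 18 hours (SD, 6 pairs), and 0.45 at 18 hours in TPM.

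ZNF2 (ENSBTAG00000001949), a zinc finger protein of the DNA-binding kind, was near the CPM minimum. At 3 hours its control wells had 6.50, 4.86 and 6.04 CPM in high responder cows 92, 93 and 94 and 4.46, 6.03 and 6.15 CPM in low responder cows 91, 92 and 93, and its exposed wells had 2.32, 1.63 and 2.43 CPM and 3.51, 2.71 and 3.99 CPM. The exposed wells of both responder groups were below every control well. At 18 hours the control wells had 5.84, 6.57 and 5.78 CPM in high responder cows 91, 93 and 94 and 8.69, 8.83 and 8.41 CPM in low responder cows 91, 92 and 94, and the exposed wells had 5.28, 6.95 and 5.00 CPM and 6.97, 7.78 and 8.28 CPM. The response was -1.03 ± 0.46 at 3 hours and -0.13 ± 0.14 at 18 hours (SD, 6 pairs), and -0.36 at 18 hours in TPM.

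FRA10AC1 (ENSBTAG00000000447), named for a fragile site of a human chromosome, had an 18 hours response above 0 in each of the 6 cows. At 3 hours it had 7.73, 5.01 and 7.60 CPM in control wells of high responder cows 92, 93 and 94 and 3.03, 1.51 and 3.69 CPM in their exposed wells. In low responder cows 91, 92 and 93 it had 7.41, 5.49 and 8.14 CPM and 6.32, 2.17 and 5.14 CPM. At 18 hours it had 7.15, 7.32 and 5.57 CPM in control wells of high responder cows 91, 93 and 94 and 8.17, 13.01 and 8.60 CPM in exposed wells, and low responder cows 91, 92 and 94 had 8.38, 8.92 and 7.56 CPM and 10.1, 10.7 and 11.1 CPM. Exposed wells were above control wells without overlap in both responder groups at 18 hours. The response was -1.01 ± 0.50 at 3 hours and 0.45 ± 0.25 at 18 hours (SD, 6 pairs), and 0.18 at 18 hours in TPM.

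**Figure D3:**
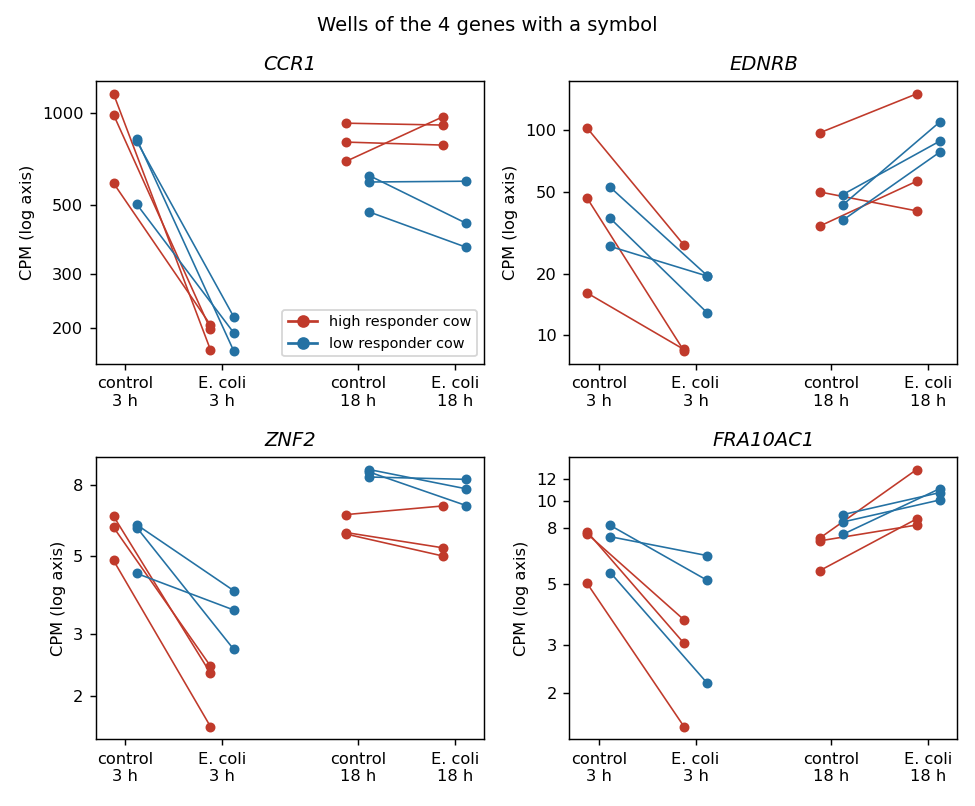
CPM of CCR1, EDNRB, ZNF2 and FRA10AC1 in each well (log axis), with lines joining the control and exposed well of one cow at 3 and at 18 hours, high responder cows in red and low responder cows in blue. Every line falls at 3 hours, and at 18 hours FRA10AC1 lines all climb, EDNRB lines climb in 5 of 6 cows, and the CCR1 wells of high responder cows lie above those of low responder cows.

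The other 36 genes are known here by identifier only. ENSBTAG00000039035 had the highest 18 hours response of the 40, 1.42 ± 0.36 (SD, 6 pairs), after -1.51 ± 0.51 at 3 hours. Its control wells at 18 hours had 8.90, 11.6 and 16.8 CPM in high responder cows 91, 93 and 94 and 9.39, 11.2 and 7.40 CPM in low responder cows 91, 92 and 94, and its exposed wells had 19.0, 47.0 and 49.1 CPM and 28.4, 27.6 and 15.2 CPM. The exposed well was higher in each of the 6 cows, and in TPM the response was still 1.12. ENSBTAG00000021920 was the other gene with a 3 hours response near that of CCR1, at -1.96 ± 0.34, with a mean of 9.82 CPM in control and 2.30 CPM in exposed wells, and its 18 hours response was 0.08 ± 0.55.

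ENSBTAG00000022278 met the rule through single wells. Its 3 hours response of -1.83 came from high responder cow 94, at -6.18, and low responder cow 91, at -6.33, where the exposed well had a count of 0, and the other 4 cows had responses of 0.28 to 0.47. At 18 hours the control well of high responder cow 91 also had a count of 0, and the response of that cow was 5.89. The standard deviation that RSEM gave for its counts was 63.5% of the counts, and its effective length was 343 bases, so that its reads may be shared with other genes and its values are uncertain. CCR1 also had fractional counts in 20 libraries, but with a standard deviation of only 0.00297% of the counts, and the other 38 genes had whole counts in every library.

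The 3 hours response varied between cows, and the responder groups overlapped. The median over the 40 genes was -1.40, -1.52 and -1.07 in high responder cows 92, 93 and 94, and -0.88, -1.25 and -1.04 in low responder cows 91, 92 and 93. In 35 of the 40 genes the response was below 0 in all 6 cows. Genes that lipopolysaccharide is known to induce, 11 with a symbol such as IL1B, NOS2 and CXCL8, had median responses of 4.84, 5.65 and 4.47 in the same high responder cows and 3.86, 4.76 and 4.08 in the low responder cows. The cows had the same order from weakest to strongest by both medians, and the 200 genes at or below -1 at both hours had medians of -1.14 to -1.73 with low responder cows 91 and 93 at the weaker end. These values share libraries and scaling, and the part of induction strength in the repression was not tested.

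At 18 hours the median over the 40 genes was 0.05, -0.03 and -0.21 in high responder cows 91, 93 and 94 and -0.10, 0.12 and 0.02 in low responder cows 91, 92 and 94. The induced genes were still at medians of 2.94 to 4.37, while the median of the 40 genes was near 0 in each cow. The 200 genes at or below -1 at both hours had medians of -1.45 to -2.20 in the same cows.

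**Figure D4:**
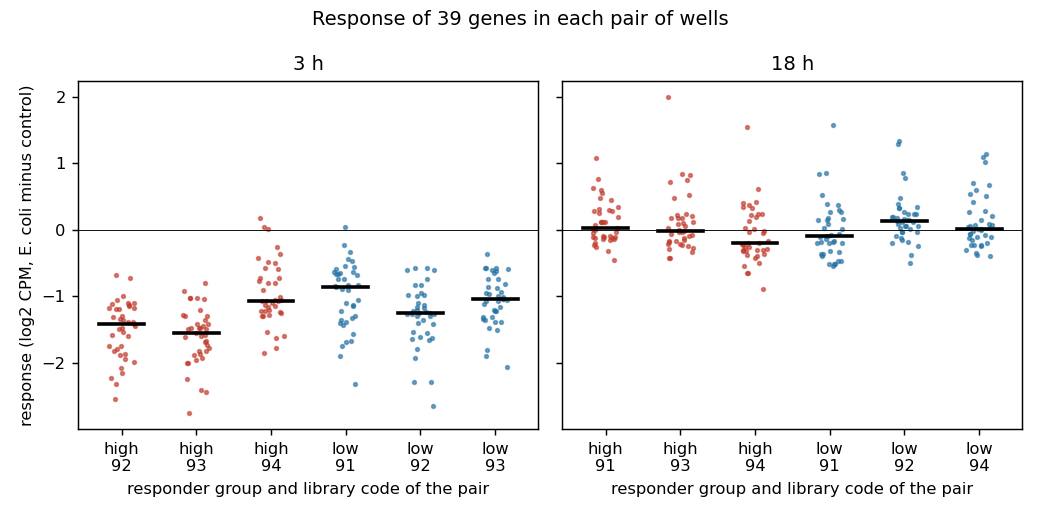
Response (log2 CPM, exposed minus control well) of 39 of the genes in each cow at 3 hours (left) and 18 hours (right), without ENSBTAG00000022278, where points are genes, black bars the medians of these 39, red the high and blue the low responder group. At 3 hours nearly all points are below 0 in every cow, and at 18 hours they scatter around 0.

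Genes were also chosen by the responses of one responder group and read in the other, whose responses the thresholds had not used. The CPM minimum and the TMM scaling still used the wells of both groups, so these values are not fully independent of the choice. The same thresholds applied to the 3 high responder cows alone kept 75 genes, of which 29 were among the 40 (38.7% of the 75 and 72.5% of the 40). In the low responder cows these 75 genes had a median response of -0.72 at 3 hours and 0.06 at 18 hours, against -0.03 and 0.01 for all 9727 genes there. They were below 0 at 3 hours in 72 of 75 (against 52.9% of all genes), at most -1 in 20 of 75 (against 3.69%) and at or above -0.2 at 18 hours in 61 of 75 (against 66.4%). The low responder cows alone kept 46 genes, of which 21 were among the 40 (45.7% of the 46 and 52.5% of the 40). In the high responder cows these had a median of -1.01 at 3 hours and -0.07 at 18 hours, against -0.01 and 0.002 for all genes. They were below 0 at 3 hours in 43 of 46 (against 51% of all genes) and at most -1 in 23 of 46 (against 5.28%). At 18 hours 30 of 46 were at or above -0.2, near the 62.5% of all genes. Both rules together were met by 14 genes.

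With 1 cow left out at a time, 30 to 63 genes were chosen at 3 hours and 38 to 43 at 18 hours. The CPM minimum and the TMM scaling still used the wells of every cow. The cow left out had a median 3 hours response between -0.59, in 63 genes chosen without high responder cow 94, and -1.48, in 30 genes chosen without high responder cow 93. Of the 40 genes, 29 to 38 were kept with a cow left out at 3 hours, fewest without high responder cow 93, and 34 to 39 at 18 hours. The cow left out at 18 hours had medians between -0.24 and 0.10. Over all 9727 genes the medians of the same cows were between -0.06 and 0.02 at 3 hours and between -0.005 and 0.03 at 18 hours. A median near 0 at 18 hours thus did not set the chosen genes apart from all genes.

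High and low responder cows were compared, to ask whether repression or return differed by responder group, and all 40 passed the filter on low counts in each comparison. The responses compared are the same ones whose mean over both groups chose the genes, and only their difference between the groups was not used by the rule. In the 3 hours response 0 of 40 genes passed an adjusted p of 0.05 with a fold above 1.5 in edgeR's quasi-likelihood test, against 0.178% of 11264 genes tested, and DESeq2 called 0, against 1.99% of genes. At an unadjusted p below 0.05 there were 7 of 40 (17.5%, against 12.7% of all genes), 6 of them with the stronger repression in high responder cows. The difference was above 0 in 25% of the 40 genes, against 53.6% of all genes. It was below 0 in 30 of 40 genes with a median of -0.23, against a median of 0.03 over all genes. High responder cows reached a mean response of at most -1 in more of all genes than low responder cows (5.28% against 3.69%), so the choice of genes can favour this direction and nothing is read from it. The cows of the 2 groups did not overlap in 5 of 40 (12.5%, against 19.9%). Without high responder cow 94 the same test called 4 of the 40 (against 4.47% of genes), and 506 genes in all against 20 with every cow.

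ENSBTAG00000008674 had the smallest p of the 40 in this comparison, chosen after its values were seen. Its 3 hours responses were -1.74, -2.0 and -1.29 in high responder cows 92, 93 and 94 and -0.85, -0.84 and -0.81 in low responder cows 91, 92 and 93, without overlap. The difference of -0.83 (SE 0.21) did not pass the threshold (adjusted p = 0.178, edgeR's quasi-likelihood test with Benjamini-Hochberg adjustment). Without high responder cow 94 it was -1.06 (SE 0.19, adjusted p = 0.00636 by the same edgeR test), and the other 3 genes then called were ENSBTAG00000013114, ENSBTAG00000014881 and ENSBTAG00000016284, all with stronger repression in high responder cows. Cow 94 had the weakest repression of the high responder cows in ENSBTAG00000008674 and in the median of the 40 genes, so that leaving it out moves these differences downward and nothing is read from the 4 calls. Leaving out any of the other 5 cows called 0 of the 40 by the same test. ZNF2 differed by -0.76 (SE 0.33, adjusted p = 0.392 by edgeR), with no overlap between the groups, and CCR1 by -0.34 (SE 0.33, adjusted p = 0.698 by edgeR). With 1 cow left out CCR1 differed by -0.70 to -0.07 and ZNF2 by -0.93 to -0.59.

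In the 18 hours response 0 of 40 genes were called by edgeR's quasi-likelihood test, against 1.62% of 11759 genes, and 0 by DESeq2, against 4.01%. At an unadjusted p below 0.05 there were 3 of 40 (7.5%, against 17.6%), and the groups did not overlap in 4 (10%, against 22.8%). EDNRB was one of them, with responses of 0.63, 0.72 and -0.30 in high responder cows 91, 93 and 94 and 0.86, 1.33 and 1.09 in low responder cows 91, 92 and 94. The difference was -0.74 (SE 0.25, adjusted p = 0.173 by edgeR with Benjamini-Hochberg adjustment). CCR1 differed by 0.43 (SE 0.18, adjusted p = 0.265 by edgeR), with overlapping groups. With 1 cow left out EDNRB differed by -0.90 to -0.43 and CCR1 by 0.28 to 0.59.

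**Figure D5:**
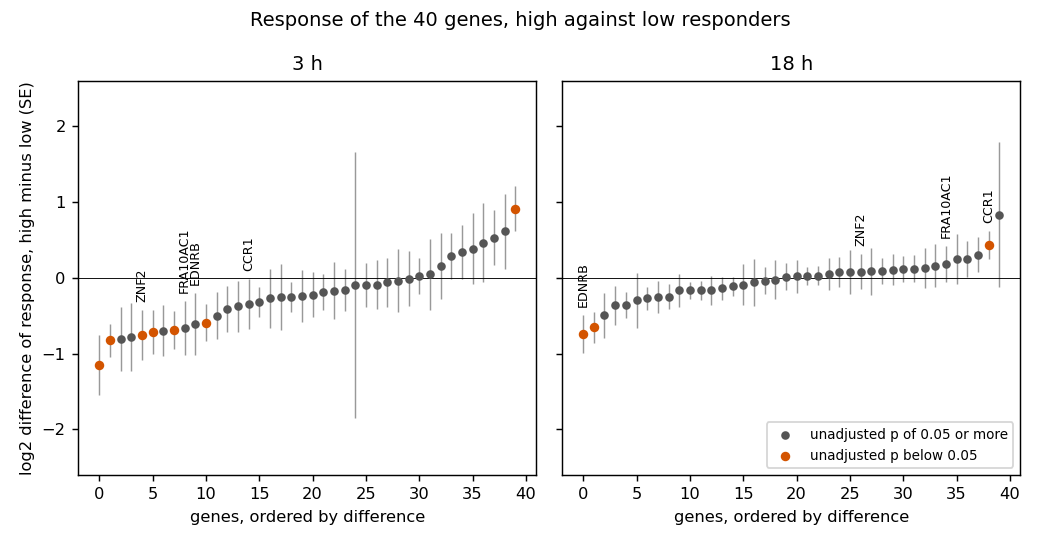
Difference of the response between high and low responder cows (log2, high minus low) of the 40 genes at 3 hours (left) and 18 hours (right), in order of size, with SE derived from the F statistic of edgeR's quasi-likelihood test, and orange points have an unadjusted p below 0.05. At 3 hours 30 of 40 points are below 0, and 25% are above 0, against 53.6% of all genes. The choice of genes can favour this direction, and nothing is read from it. None of the 40 passed the adjusted threshold at either hour.

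In control wells 0 of 40 genes differed between responder groups by edgeR's quasi-likelihood test at 3 hours (against 0.00906% of 11034 genes) and 0 at 18 hours (against 0.15% of 11356). Unadjusted p was below 0.05 in 1 of 40 at 3 hours (2.5%, against 7.85%) and in 11 of 40 at 18 hours (27.5%, against 21.7%), and the groups did not overlap in 4 (10%, against 13.1%) and 13 (32.5%, against 28.5%). DESeq2 called 0 of the 40 in control wells at 3 hours (against 2.18% of genes) and 1 at 18 hours (against 6.1%), ENSBTAG00000021920, which was higher in high responder cows by 1.28 (SE 0.42, adjusted p = 0.0289 by DESeq2).

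In exposed wells edgeR's quasi-likelihood test called 0 of 40 at 3 hours (against 0.0839% of 10726 genes) and 0 at 18 hours (against 0.0446% of 11210). Unadjusted p was below 0.05 in 2 of 40 (5%, against 12.8%) and 11 of 40 (27.5%, against 18.2%), and the groups did not overlap in 5 (12.5%, against 19.2%) and 14 (35%, against 25.1%). CCR1 had the smallest adjusted p at 18 hours, with a level higher in high responder cows by 0.91 (log2, SE 0.20, adjusted p = 0.0944 by edgeR with Benjamini-Hochberg adjustment) and no overlap, and in control wells by 0.50 (SE 0.15, adjusted p = 0.122 by edgeR), also without overlap. DESeq2 called CCR1 (0.92, SE 0.21, adjusted p = 0.000622 by DESeq2) and ENSBTAG00000021920 in exposed wells at 18 hours, 2 of 40 against 5.69% of genes, and ENSBTAG00000015534, lower in high responder cows, at 3 hours, 1 of 40 against 2.61%. These counts were near the share of all genes that DESeq2 called. In exposed wells at 3 hours CCR1 differed by -0.02 (SE 0.17, adjusted p = 0.97 by edgeR), and all its wells lay between 168 and 217 CPM.

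The receptors for chemoattractants and purines, to which CCR1 belongs, did not move as one group. Of 48 receptors listed, 13 had an identifier and 8 besides CCR1 were abundant enough to test with edgeR's quasi-likelihood test, which called 3 higher and 2 lower at 3 hours and 4 higher and 2 lower at 18 hours. Over all genes tested, 13.5% were called higher and 12% lower at 3 hours, and 15.1% and 21.4% at 18 hours. CXCR4, the receptor for CXCL12, was higher by 1.36 (log2, SE 0.08, adjusted p = 2.17e-06) and 1.53 (SE 0.11, adjusted p = 9.62e-07), and CCRL2, a decoy-like chemokine receptor, by 2.0 (SE 0.13, adjusted p = 5.08e-06) and 2.94 (SE 0.10, adjusted p = 9.83e-09).

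PTAFR, the receptor for platelet-activating factor, had the pattern nearest to CCR1 among these receptors, with -0.86 (SE 0.11, adjusted p = 0.000331) at 3 hours and 0.31 (SE 0.10, adjusted p = 0.0236, fold below 1.5) at 18 hours in the same edgeR test. GPR34, a receptor of lysophosphatidylserine, fell by 2.85 (SE 0.19, adjusted p = 5.42e-06) at 3 hours and fell by 7.41 (SE 0.16, adjusted p = 1.29e-09) at 18 hours.

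Genes named ZNF, to which ZNF2 belongs, numbered 32 with an identifier, and 28 besides ZNF2 were tested. Of these edgeR's quasi-likelihood test called 1 higher and 6 lower at 3 hours, and 1 higher and 3 lower at 18 hours. Of all genes, 13.5% were called higher and 12% lower at 3 hours, and 15.1% and 21.4% at 18 hours. ZNF286A, which met both response thresholds but reached only 3.30 CPM, fell by 1.12 (SE 0.29, adjusted p = 0.0124) at 3 hours and had -0.05 (SE 0.17, adjusted p = 0.813) at 18 hours. ZNF667 fell by 0.92 (SE 0.14, adjusted p = 0.000719) at 3 hours and had 0.12 (SE 0.11, adjusted p = 0.36) at 18 hours. ZNF174 fell by 1.26 (SE 0.18, adjusted p = 0.000515) and had -0.42 (SE 0.09, adjusted p = 0.00237, fold below 1.5), and ZNF652 fell by 2.03 (SE 0.24, adjusted p = 0.000198) and fell by 1.51 (SE 0.18, adjusted p = 4.95e-05).

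The 40 genes were of low abundance. The control level at 3 hours enters both the response and the CPM minimum, so it is a description. Their median level in control wells at 3 hours was 10.7 CPM, against 19.1 CPM for the 200 genes at or below -1 at both hours and 29.8 CPM for all 9727, and 28 of 40 (70%) had less than 20 CPM, against 52% and 38.2%. Their median effective length was 1884 bases, against 1974 and 1823 bases. One annotated transcript was listed for 36 of 40 (90%), against 91% and 90.4%. A symbol was known here for 4 of the 40, so that most could not be placed in a pathway. Among the other lists examined, neither the 10 identified Toll-like receptors and adaptors nor the 21 identified genes of DNA replication and cell division held one of the 40. Since the 40 genes were only 0.411% of the 9727, nothing is read from these absences.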

How the data were processed

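The authors prepared stranded mRNA libraries, used Trimmomatic for trimming, FastQC 0.11.5 for quality, STAR for mapping (build UMD 3.1) and RSEM for quantification. The deposited tables hold expected counts (RSEM's estimated counts per gene, not normalized), TPM, effective lengths and a posterior standard deviation of the count, the last a score of how uncertain the sharing of reads is, for 24616 genes in each of 24 libraries. Between 492 and 852 genes per library had an expected count that was not whole, and these deposited counts were rounded. The depth of 6297189 to 20936550 counts limits precision in genes with few counts.

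Responses were computed per hour with edgeR 4.0.16 in R 4.3.3 (TMM, prior count 2). Differences of response were tested with edgeR's quasi-likelihood test, with a term for each cow and an effect of *E. coli* for each responder group, and control or exposed wells with 6 libraries each; p-values were adjusted by Benjamini-Hochberg over all genes tested. The SE given with edgeR's test is the size of the log2 difference divided by the square root of the F statistic. DESeq2 1.42.0, which reports its own SE, was an alternative. The *E. coli* effect averaged over both groups was tested for listed genes only outside the 40; this test, the TPM and library-total scales and the limit on uncertain counts were added after seeing the data. The members and gene lists were chosen with earlier results of these data known. Named genes are members with a symbol that lead by response or level, stand on a list or lie next to a threshold, and other identifiers were chosen after their values were seen. The same code number within a responder group and hour pairs 2 wells; the deviations of 12 such pairs from the group means correlated at 0.33 to 0.73 and those of 24 pairs with different numbers at -0.57 to 0.01, across genes. Symbols came from the identifier columns of 2 shortened supplementary tables (1997 rows each), which name 2803 identifiers. Promoter or protein sequences and gene positions are not used here. The fits were tested on simulated data: the test of the difference found 171 of 200 planted changes of 1.5 (log2) (10 false calls) for 3 hours and 175 (12 false) for 18 hours. The rule recovered 188 of 200 genes planted with a 3 hours fall deeper than the median of the 40 genes and no change at 18 hours. Simulated counts had the same dispersion for all genes and no differences between cows. Group differences smaller than those planted, such as all of those of the 40 genes, were not simulated, nor were responses close to the thresholds.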

Additional observations from a re-analysis of the deposited data

How the results depend on the processing

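The number of genes meeting the rule was 65 with a CPM minimum of 1, 75 in high responder cows alone, 98 in TPM (15 of them among the 40) and 149 with library totals without TMM (17 among the 40), and 30 to 63 with 1 cow left out, highest without high responder cow 94 at 3 hours. Size factors, prior count, joint normalization, effective length, the CPM minimum per group, the low responder cows alone and leaving out uncertain counts gave 36 to 47. RLE size factors kept 35 of the 40 genes.

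Genes called in the 3 hours response difference (20) numbered 103 without a filter on low counts, 189 with DESeq2, 0 with a term for *E. coli* by library code, and 0 to 506 with a cow left out; without the replicate block for pairs of wells they numbered 0. At 18 hours (190) they numbered 435, 398, 67, 30 to 178, and 0 without the replicate block. Of the 40 genes, 0 were called in these settings, except 0 to 4 with a cow left out at 3 hours (4 without high responder cow 94).

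In control wells at 3 hours (1 gene called) the count was 8 without a filter, 2 with a mean of at least 50 counts, 240 with DESeq2 and 0 to 28 with a cow left out; at 18 hours (17) it was 219 without a filter, 692 with DESeq2 and 0 to 129. In exposed wells at 3 hours (9) it was 51 without a filter, 280 with DESeq2 and 0 to 72; at 18 hours (5) it was 41, 638 and 0 to 52. DESeq2 called 1 of the 40 in control wells at 18 hours, 1 in exposed wells at 3 hours and 2 at 18 hours, and edgeR with a cow left out called 0 in each. The causes were not tested.

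Uncalled differences of wells changed sign with 1 cow left out. In control wells EDNRB was -0.341 to 0.92 at 3 hours and -0.0372 to 0.76 at 18 hours, ZNF2 -0.0913 to 0.19 and FRA10AC1 -0.21 to 0.138 at 3 hours. In exposed wells CCR1 was -0.13 to 0.0633 and EDNRB -1.06 to 0.0448 at 3 hours, and EDNRB -0.94 to 0.151 and FRA10AC1 -0.36 to 0.0141 at 18 hours.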
